A study of Homo sapiens with 12 samples.

Results

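The nuclear-encoded subunits of the mitochondrial respiratory chain and ATP synthase were followed in MDA-MB-468 cells, a human triple-negative breast cancer line. They were taken by symbol: names that begin with NDUFA, NDUFB, NDUFC, NDUFS, NDUFV, UQCR, COX4, COX5, COX6, COX7, COX8 or ATP5, together with SDHA, SDHB, SDHC and SDHD, leaving out pseudogenes and names with a hyphen. Of the 58735 gene entries in the count tables, 97 met this rule, which reads names alone. The rule also takes in 8 assembly factors of complex I (NDUFAF1 to NDUFAF8), which are counted apart, and NDUFA4 and NDUFA4L2, which belong with complex IV despite their names. A low-count filter left 17780 genes for testing, of which 91 were members. The 6 others (COX4I2, COX6A2, COX6B2, COX7A1, COX8C and ATP5MGL) had at most 11 counts in any library.

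The series holds 12 libraries of poly(A) RNA in 4 groups of 3, labelled A, B and C, all from MDA-MB-468 cells of wild-type genotype. A control group received DMSO. Docetaxel at 10 nM was given to a pair of groups, collected after 8 h or after 24 h. The group called the combination here received tazemetostat and ipatasertib, each at 5 µM, and was collected at 24 h. Docetaxel stabilises microtubules, tazemetostat inhibits the histone methyltransferase EZH2, and ipatasertib inhibits the kinase AKT. The combination cells had spent the preceding 5 days in tazemetostat or vehicle, and were then dosed in 2% FBS on smaller plates than those of the docetaxel cells. The labels give neither the hours, the serum nor the plates of the DMSO libraries, so a difference from DMSO cannot be told apart from these conditions, and no group analysed here received either inhibitor alone. They do not say that A, B and C were separate cultures, so the p-values speak for the spread among these 12 libraries alone, and that spread may be technical.

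The respiratory chain carries electrons from NADH and succinate to oxygen in the inner mitochondrial membrane. Complex I (NADH dehydrogenase) and complex II (succinate dehydrogenase) pass electrons to ubiquinone, complex III passes them to cytochrome c, complex IV (cytochrome c oxidase) reduces oxygen, and complex V (ATP synthase) makes ATP from the proton gradient. Complex II is encoded wholly in the nucleus, whereas the other complexes combine nuclear subunits with a few that the mitochondrial genome encodes. Many of the nuclear genes are known targets of the factors NRF1, GABP and YY1 and of the PGC-1 coactivators.

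Total counts ran from 29820617 to 45807059 per library. Epithelial markers were high in every library (EPCAM 306 to 466 and KRT8 2871 to 4051 CPM, normalised with TMM-scaled library sizes), as was EGFR (2522 to 5305), while ESR1 (at most 2.13), PGR (at most 0.0357) and the leukocyte gene PTPRC (at most 0.227) were low or at 0. The members together took 0.994% ± 0.0195 of all counts in DMSO (SD, n = 3 here and for each group), 1.12% ± 0.0736 after 8 h, 1.11% ± 0.0433 at 24 h and 0.904% ± 0.0383 in the combination. The genes of the mitochondrial genome took 4.21% ± 0.244, 8.55% ± 0.409, 6.38% ± 1.28 and 8.49% ± 0.799 in the same order. In bulk RNA, fewer cells that express a gene and less of its RNA per cell cannot be told apart.

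Because the members are known as a co-regulated family, their promoters were read from the RefSeq promoter table (GRCh38.p14), which covers 250 bases before to 50 after the gene start. The table matched 79 of the 97 members, of which 76 were among those tested, and 11 members have several windows, of which the first was used. Here 1 window is shown for each complex, with the motif matches on either strand in capitals: GCGCATGCG (NRF1 core), CCGGAAG (core of ETS factors, the family of GABPA), AAGATGGCG (YY1 core) and GGGCGG (GC box). The windows lie at chr2:206159395-206159694 on the minus strand for NDUFS1, chr11:112086623-112086922 on the plus strand for SDHD, chr3:48609597-48609896 on the minus strand for UQCRC1, chr2:97645812-97646111 on the plus strand for COX5B and chr12:53676034-53676333 on the minus strand for ATP5MC2.
NDUFS1: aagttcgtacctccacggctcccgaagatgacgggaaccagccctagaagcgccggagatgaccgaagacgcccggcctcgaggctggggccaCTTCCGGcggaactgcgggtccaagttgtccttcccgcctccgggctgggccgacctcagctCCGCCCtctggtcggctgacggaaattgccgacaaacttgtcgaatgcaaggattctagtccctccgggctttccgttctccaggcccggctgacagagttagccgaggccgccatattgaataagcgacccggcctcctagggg
SDHD: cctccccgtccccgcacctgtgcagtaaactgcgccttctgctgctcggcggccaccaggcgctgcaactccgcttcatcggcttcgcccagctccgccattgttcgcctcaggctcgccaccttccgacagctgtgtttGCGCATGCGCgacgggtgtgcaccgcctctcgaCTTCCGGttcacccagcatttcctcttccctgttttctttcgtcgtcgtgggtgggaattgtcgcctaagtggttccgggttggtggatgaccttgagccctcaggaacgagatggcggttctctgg
UQCRC1: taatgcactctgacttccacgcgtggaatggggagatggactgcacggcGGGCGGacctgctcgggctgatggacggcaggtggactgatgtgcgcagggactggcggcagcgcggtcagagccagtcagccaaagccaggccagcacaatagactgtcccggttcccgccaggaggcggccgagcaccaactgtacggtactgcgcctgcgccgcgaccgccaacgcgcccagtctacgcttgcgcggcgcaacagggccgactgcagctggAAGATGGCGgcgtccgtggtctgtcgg
COX5B: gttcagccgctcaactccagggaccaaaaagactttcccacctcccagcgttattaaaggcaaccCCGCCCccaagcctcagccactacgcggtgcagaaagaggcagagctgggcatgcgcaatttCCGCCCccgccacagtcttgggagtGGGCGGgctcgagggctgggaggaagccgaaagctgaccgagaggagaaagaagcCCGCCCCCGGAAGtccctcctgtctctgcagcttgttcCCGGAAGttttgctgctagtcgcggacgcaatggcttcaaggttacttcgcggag
ATP5MC2: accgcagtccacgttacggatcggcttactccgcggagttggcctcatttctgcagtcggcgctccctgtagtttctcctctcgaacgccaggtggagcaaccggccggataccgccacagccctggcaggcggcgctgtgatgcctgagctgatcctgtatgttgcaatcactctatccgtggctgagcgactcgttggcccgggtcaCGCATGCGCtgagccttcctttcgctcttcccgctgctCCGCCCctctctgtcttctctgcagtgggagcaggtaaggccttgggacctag
SDHD holds a pair of NRF1 matches that overlap on opposite strands, and an ETS match downstream of them. COX5B holds 2 ETS matches and 4 GC boxes, UQCRC1 a YY1 match close to its 3′ end, NDUFS1 an ETS match and ATP5MC2 an NRF1 match. Across the tested members the NRF1 core was present in 14.5% of windows, against 1.92% of all 35116 windows of the same length in the table. The ETS core was present in 27.6% against 10.3%, the YY1 core in 10.5% against 1.75% and the GC box in 56.6% against 45%. The tested members gave 1 window each and are all expressed, whereas the windows of the table were taken without regard to expression. A difference from other expressed genes was not tested. A match describes letters only and shows no binding.

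For some duplicated subunits the counts showed which copy had most of the mRNA. COX4I1, the ubiquitous form of subunit 4 of complex IV, stood at 420, 405 and 417 normalised CPM in DMSO, whereas its lung form COX4I2 had 2, 0 and 0 counts. COX7A2 (109, 106 and 112 CPM) was likewise present and the muscle forms COX7A1 and COX6A2 nearly absent, with at most 8 and 7 counts in any library. Adjusted for transcript length, the highest DMSO levels were those of NDUFS5 at 547, COX4I1 at 522, ATP5F1B at 473 and UQCRH at 411 CPM per kb. UQCRHL, an intronless copy of UQCRH, was counted at only 2.6 CPM per kb, and reads of such near-identical copies may be split between them. The lowest complex I subunits in DMSO were NDUFA7 at 0.2, NDUFV2 at 1.0 and NDUFA13 at 3.1 CPM per kb. Other annotated genes cover 32.3%, 28.4% and 21.0% of their exons on the same strand, and how the counting program treated such reads is not given in the sources used here, so the levels of these 3 genes are uncertain. Of the genes described most closely, GENCODE 29 (GRCh38) places NDUFS1 at chr2:206114817-206159603 (minus strand), SDHA at chr5:218241-256700 (plus), ATP5F1B at chr12:56638175-56646068 (minus), ATP5MC1 at chr17:48892765-48895871 (plus) and ATP5MC2 at chr12:53632726-53677408 (minus).

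**Figure D1:**
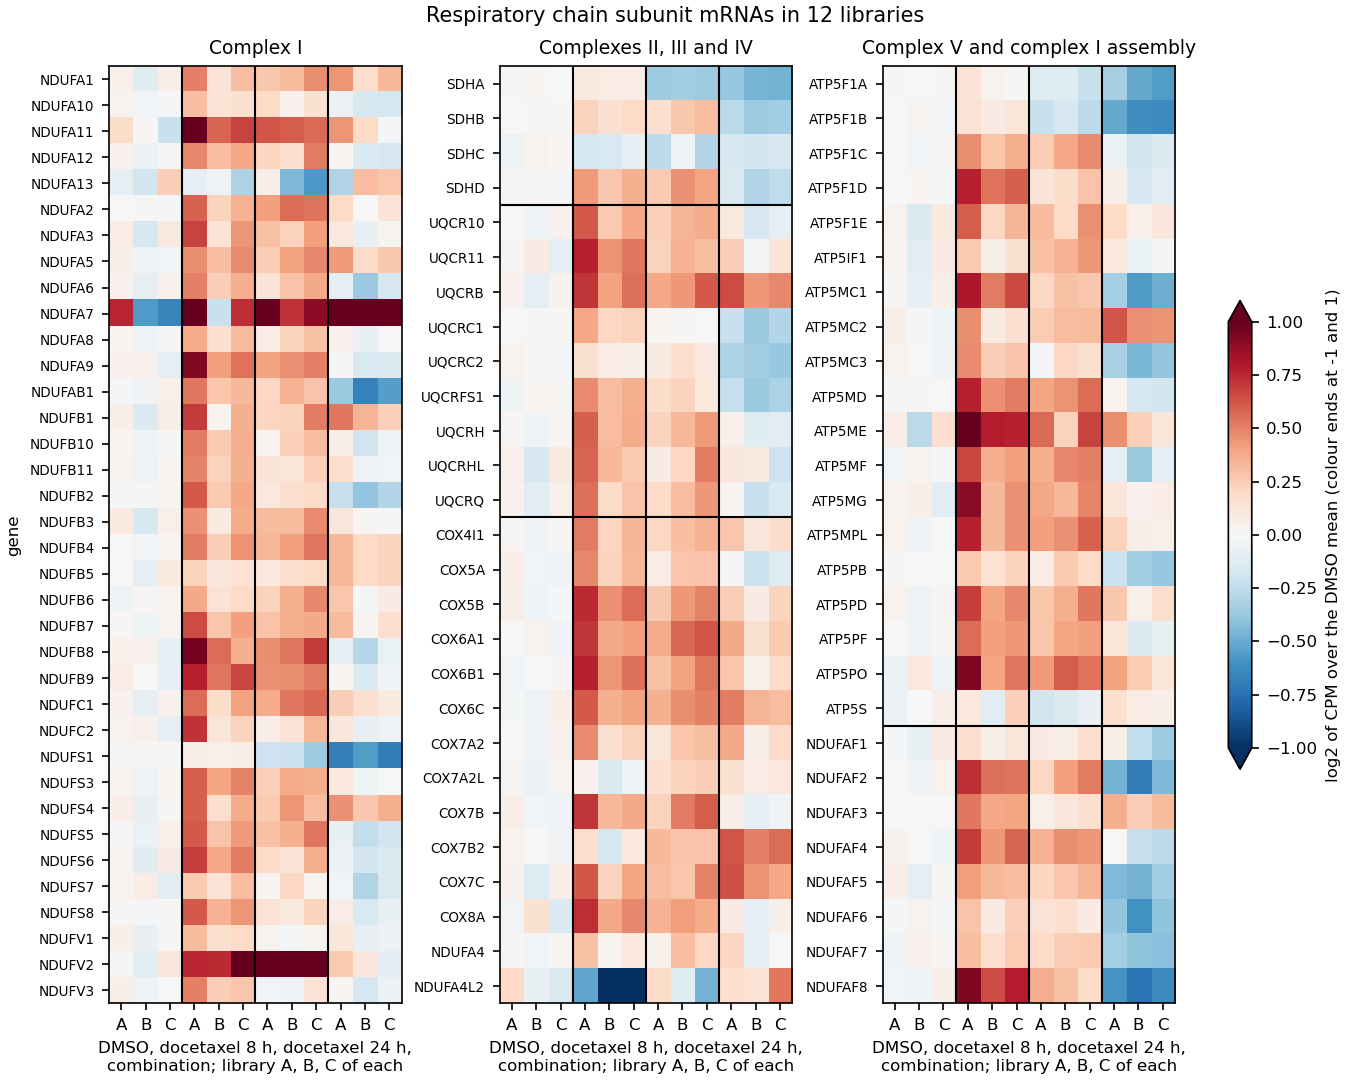
Log2 ratio of normalised CPM to the DMSO mean for the tested members reported here (rows, by complex) in the 12 libraries (columns, 3 per group). Colour ends at -1 and 1, which NDUFA7, NDUFV2, NDUFA4L2 and a few other low genes exceed. The docetaxel columns are mostly red, and the combination columns hold both colours, with all 4 complex II rows blue.

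After 8 h of docetaxel nearly the whole set rose. Of the 91 members, 76 were higher than in DMSO and 1 was lower, where 22.5% of all tested genes were higher and 24.8% lower (edgeR quasi-likelihood test, Benjamini-Hochberg adjusted p under 0.05 over all genes, as throughout). The members' median log2 fold change was 0.39, against -0.02 for all tested genes, and the values of 80 members (87.9%) did not overlap between the groups, where 56% of all tested genes did not overlap. The 3 docetaxel libraries had median ratios of 0.53, 0.25 and 0.36 on the log2 scale, library A being the highest, and DMSO libraries lay between -0.03 and 0.02. Without docetaxel 8 h A, 68 members were higher, 1 was lower and the median was 0.30. With library totals in place of TMM the counts were 58 higher and 4 lower, a scaling under which the median of all genes was -0.18 and 2288 genes were higher and 6782 lower (TMM: 3994 and 4415). With totals that leave out the mitochondrial genome they were 67 and 3, with the median of all genes at -0.11 (2980 genes higher and 5666 lower). The members' median was 0.23 with library totals and 0.30 with totals that leave out the mitochondrial genome. Of the 77 members called with TMM, 59 and 68 kept their call in the same order.

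In complex I, 33 of 37 subunits rose at 8 h, 5 of the 7 core subunits and 28 of the 30 supernumerary ones, with a median of 0.39. NDUFB9, a supernumerary subunit of the membrane arm, had 58.5, 55.4 and 52.4 CPM in DMSO and 95.0, 80.4 and 88.0 at 8 h. All treated libraries were above all controls (log2 fold change 0.66, SE 0.06, adjusted p = 9.14e-09). NDUFA11, another subunit of the membrane arm, rose from 11.6 ± 1.6 to 21.0 ± 5.37 CPM (0.85, SE 0.13, adjusted p = 1.38e-05). NDUFV1, the subunit that binds NADH and FMN, rose by less, from 260 ± 11.5 to 304 ± 17.4 CPM (0.23, SE 0.06, adjusted p = 0.0018). The core subunit NDUFS1 did not pass the test (0.06, adjusted p = 0.359). The assembly factors moved with the subunits, 7 of 8 being higher with a median of 0.40. NDUFAF8, which assists NDUFAF5, showed 25.3, 25.0 and 26.9 CPM in DMSO and 49.3, 40.4 and 44.3 at 8 h, without overlap (0.80, SE 0.07, adjusted p = 5.48e-09).

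Complex II was divided at 8 h. SDHB, the iron-sulphur subunit, rose from 73.2 ± 0.917 to 83.8 ± 2.35 CPM (0.19, SE 0.05, adjusted p = 0.00274), a call that ended with library totals (0.04, adjusted p = 0.528) and with totals that leave out the mitochondrial genome (0.11, adjusted p = 0.0624). SDHD, a membrane anchor, rose from 101 ± 1.32 to 129 ± 7.00 CPM (0.35, SE 0.06, adjusted p = 1.81e-05). The flavoprotein SDHA (0.08, adjusted p = 0.141) and the other anchor SDHC (-0.14, adjusted p = 0.0554) did not pass. The median of the 4 genes was 0.14, and it was -0.02 with library totals, where that of all tested genes was -0.18.

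In complex III, 8 of 9 genes rose, with a median of 0.40. UQCR11, a small supernumerary subunit, went from 18.4 ± 1.18 to 27.8 ± 3.43 CPM (0.59, SE 0.08, adjusted p = 3.4e-06), and UQCRB, the ubiquinone-binding protein, from 55.4 ± 3.01 to 81.7 ± 8.94 (0.56, SE 0.08, adjusted p = 2.01e-06). The Rieske iron-sulphur protein UQCRFS1, a catalytic subunit, had 240, 251 and 249 CPM in DMSO and 343, 305 and 316 at 8 h (0.38, SE 0.05, adjusted p = 2.72e-06). UQCRC2, a core structural subunit, was the exception (0.10, adjusted p = 0.095).

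In complex IV, 10 of 14 genes rose and 1 fell, with a median of 0.39. COX5B had 138, 129 and 131 CPM in DMSO and 223, 182 and 196 at 8 h (0.59, SE 0.07, adjusted p = 2.13e-07). COX6B1, which faces the intermembrane space, rose from 173 ± 3.03 to 261 ± 30.4 CPM (0.59, SE 0.07, adjusted p = 4.95e-07). NDUFA4L2, a relative of NDUFA4 known as a hypoxia-inducible gene, was the lone fall of all members. It had 1.61, 1.33 and 1.27 CPM in DMSO and 0.978, 0.433 and 0.535 at 8 h, and returned to 1.59, 1.29 and 1.01 at 24 h. The 8 h values were all under the controls (log2 fold change -1.11, SE 0.28, adjusted p = 0.00211), at a level near 1 CPM. NDUFA4 itself was at 176 ± 2.81 and 195 ± 19.4 CPM and did not pass at 8 h (0.15, adjusted p = 0.111).

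Complex V had the highest median at 8 h, 0.47 over 19 genes, of which 16 rose. All 12 genes of the membrane part (Fo) and the peripheral stalk rose, with a median of 0.53. ATP5ME, a small Fo subunit, had 8.89, 7.01 and 9.51 CPM in DMSO and 21.9, 14.6 and 14.4 at 8 h (1.0, SE 0.14, adjusted p = 5.17e-06). On the opposite strand the gene MYL5 covers 61.6% of ATP5ME's exons, and reads of the pair cannot be told apart if strand was not kept. ATP5MC1, which encodes a copy of the c-ring subunit, rose from 60.1 ± 3.19 to 95.5 ± 9.48 CPM (0.67, SE 0.07, adjusted p = 2.99e-08). In the catalytic head (F1), ATP5F1D, the delta subunit of the central stalk, rose from 192 ± 3.01 to 299 ± 26.1 CPM (0.64, SE 0.06, adjusted p = 2.6e-08). The catalytic pair ATP5F1A and ATP5F1B did not pass (0.06 and 0.12, adjusted p = 0.397 and 0.0543). ATP5IF1, the inhibitor protein of the synthase, was at 62.9 ± 4.24 and 70.5 ± 4.95 CPM with overlapping libraries (0.16, SE 0.06, adjusted p = 0.0365).

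**Figure D2:**
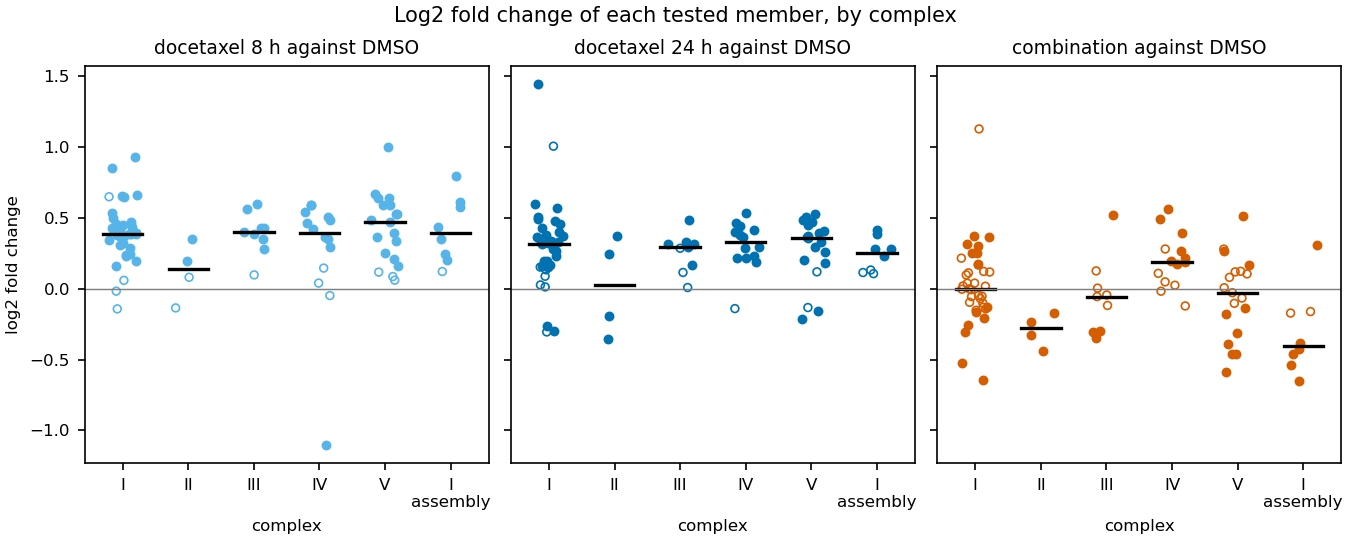
Log2 fold change against DMSO of each tested member (points) by complex in the 3 treatments, filled where past the threshold and open where not, with the median of each complex as a bar. Most members lie above 0 at 8 h and 24 h of docetaxel (medians 0.39 and 0.30) and around it in the combination (-0.01), where complex IV lies highest and the complex I assembly factors lowest.

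At 24 h of docetaxel most members were still above DMSO, and a small group was below. Of 91 members, 68 were higher and 6 lower, where 20.2% of all tested genes were higher and 22.7% lower. The median was 0.30, against 0.01 for all genes, and the 3 libraries had medians of 0.21, 0.29 and 0.36. Both docetaxel times and the combination are compared with the same 3 DMSO libraries, so their calls are not independent of each other.

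The lower members included NDUFS1, SDHA, SDHC, ATP5F1A and ATP5F1B. NDUFS1, the largest core subunit of complex I and carrier of several iron-sulphur clusters, had 123, 125 and 125 CPM in DMSO, 130, 129 and 130 at 8 h, and 108, 107 and 96.4 at 24 h. It was below all controls at 24 h (log2 fold change -0.26, SE 0.05, adjusted p = 0.000229). SDHA had 358, 367 and 365 CPM in DMSO and 285, 285 and 283 at 24 h, without overlap (-0.35, SE 0.04, adjusted p = 1.34e-06). ATP5F1B, the catalytic beta subunit of F1, fell from 870 ± 16.9 to 749 ± 27.1 CPM (-0.22, SE 0.05, adjusted p = 0.00113). The change of its partner ATP5F1A was smaller (-0.15, SE 0.06, adjusted p = 0.0282), and leaving out DMSO A, DMSO B, DMSO C or docetaxel 24 h C ended that call (adjusted p 0.073, 0.0783, 0.0989 and 0.134). SDHC (-0.19, adjusted p = 0.00815), whose libraries overlapped the controls, lost its call without DMSO B (adjusted p = 0.0559) or docetaxel 24 h C (0.066).

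By complex, 27 of 37 subunits of complex I were higher at 24 h and 2 lower, 6 of 9 genes of complex III were higher and none lower, 13 of 14 of complex IV were higher and none lower, and 15 of 19 of complex V were higher and 2 lower. In complex IV, COX6A1 went from 41.4 ± 1.02 to 59.7 ± 5.5 CPM (0.53, SE 0.08, adjusted p = 1.21e-05) and COX7B from 95.1 ± 3.88 to 131 ± 17.4 (0.46, SE 0.09, adjusted p = 0.000162). ATP5PO, the stalk subunit that confers oligomycin sensitivity, went from 35.7 ± 2.29 to 51.4 ± 3.19 CPM (0.53, SE 0.10, adjusted p = 0.000126). NDUFA2, a supernumerary subunit at the NADH end, rose from 45.6 ± 0.375 to 64.7 ± 3.68 CPM (0.50, SE 0.07, adjusted p = 6.91e-06). SDHB and SDHD were higher while SDHA and SDHC were lower, so complex II was divided evenly. The largest rise was that of NDUFV2, another core subunit, from 0.956 ± 0.0737 to 2.60 ± 0.198 CPM (1.44, SE 0.19, adjusted p = 2.92e-06), which is among the genes whose low level is uncertain because of overlap.

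The docetaxel times were also compared directly. From 8 h to 24 h, 5 members were higher and 25 lower, where 16.6% of all tested genes were higher and 18.3% lower. The members' median was -0.10, against 0.01 for all genes. The counts moved with the scaling and with single libraries. Library totals gave 15 higher and 13 lower, where 5387 of all 17780 tested genes were higher and 1659 lower. The median was then 0.03 for the members and 0.14 for all genes. Totals without the mitochondrial genome gave 10 and 16, where 4631 genes were higher and 1992 lower, with medians of -0.003 and 0.11. Leaving out docetaxel 8 h A gave 7 and 16 (2476 and 3038 of 18246 genes). Leaving out docetaxel 8 h B gave 1 and 38 (2686 and 3119 of 18242 genes). In each of these settings the members' median stayed below that of all genes. SDHA (-0.43, SE 0.04, adjusted p = 7.28e-08), ATP5F1D (-0.44, SE 0.06, adjusted p = 8.43e-06) and NDUFAF8 (-0.52, SE 0.07, adjusted p = 3.73e-06) were lower at 24 h than at 8 h under every scaling tried. COX7A2L, a protein that joins complexes III and IV, was higher, with 89.1, 78.3 and 83.6 CPM at 8 h and 97.3, 101 and 103 at 24 h (0.26, SE 0.05, adjusted p = 0.000351).

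**Figure D3:**
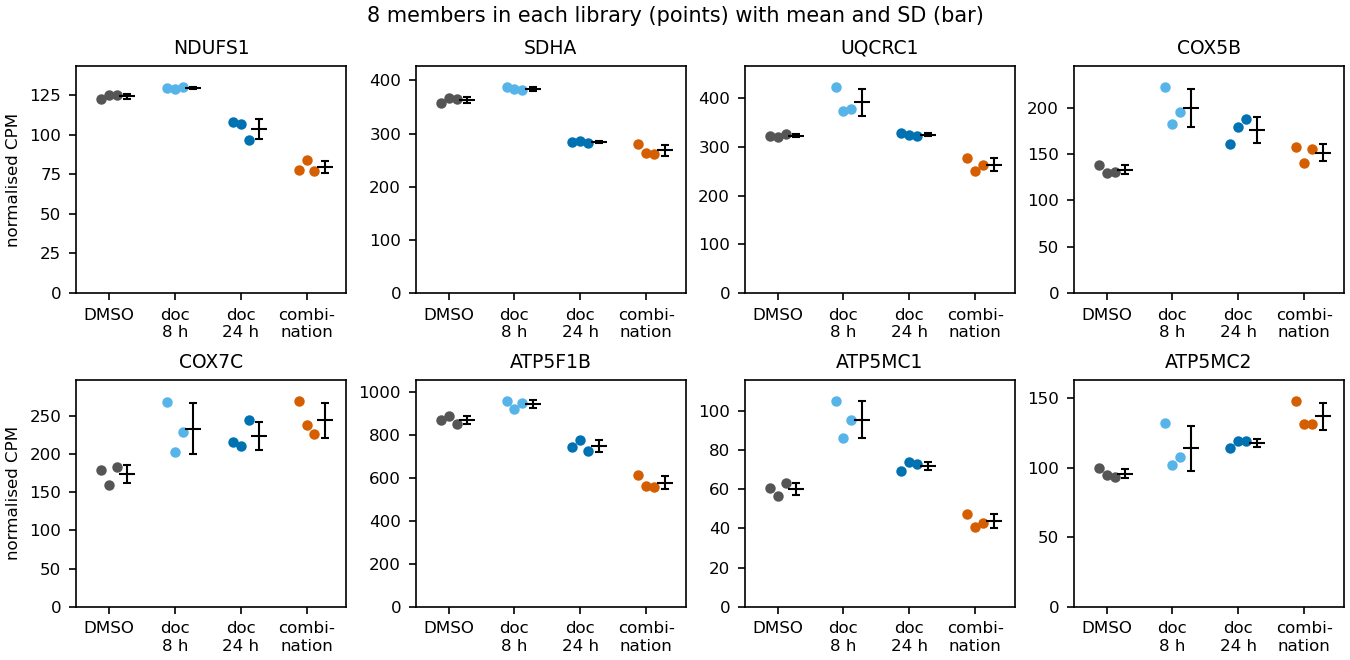
Normalised CPM of 8 members in each library (points, 3 per group) with mean and SD (bar); the vertical axes start at 0 and differ between panels. NDUFS1, SDHA and ATP5F1B fall at 24 h and in the combination, ATP5MC1 is highest at 8 h and lowest in the combination, and COX7C and ATP5MC2 are highest on average in the combination.

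In the combination members moved in both directions. Of 91 members, 20 were higher than in DMSO and 26 lower, where 31.4% of all tested genes were higher and 31.4% lower, so the shares of members called, 22.0% and 28.6%, were both under those of all genes. The median was -0.01 for the members and 0.01 for all genes. The 3 libraries had medians of 0.08, -0.09 and -0.05, library A being the highest. Without combination A, 12 members were higher and 32 lower, where 5215 and 5378 of 18134 genes were. With library totals 17 members were higher and 31 lower, where 5167 and 6019 of 17780 genes were. Totals that leave out the mitochondrial genome gave 23 and 22, where 5899 and 5184 genes were called. The share of lower members was thus above that of all genes without combination A, and close to it with library totals. All 4 genes of complex II were lower (median -0.28), and 8 of 14 of complex IV were higher with none lower (median 0.19). With library totals complex II kept 4 lower genes and complex IV had 7 higher and 1 lower, and with totals that leave out the mitochondrial genome these were 4 lower, and 9 higher with none lower.

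Complex II fell in all its parts. SDHA had 358, 367 and 365 CPM in DMSO and 280, 263 and 262 in the combination (-0.44, SE 0.04, adjusted p = 1.21e-08). SDHB fell from 73.2 ± 0.917 to 58.3 ± 2.06 CPM (-0.33, SE 0.05, adjusted p = 6.97e-06). The anchors SDHD, from 101 ± 1.32 to 85.6 ± 4.82 CPM (-0.23, SE 0.06, adjusted p = 0.00118), and SDHC, from 112 ± 3.56 to 99.9 ± 1.46 (-0.17, SE 0.06, adjusted p = 0.0127), fell by less. No library of the combination overlapped the controls for any of the 4 genes, which held for 50 of the 91 members (54.9%). The share over all tested genes was not computed for this comparison (at 8 h of docetaxel it was 56%), so nothing is drawn from the lack of overlap.

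In complex I, 7 of 37 subunits were higher and 7 lower. NDUFS1 was the largest fall, from 123, 125 and 125 CPM to 77.4, 84.2 and 77.1 (-0.64, SE 0.05, adjusted p = 2.35e-10). NDUFAB1, the mitochondrial acyl carrier protein that is also a complex I subunit, fell from 63.1 ± 1.93 to 43.8 ± 4.74 CPM (-0.53, SE 0.07, adjusted p = 8.94e-07), although it had risen at both docetaxel times (0.38 and 0.28). NDUFS4, a supernumerary subunit needed for a stable NADH arm, rose from 25.3 ± 1.31 to 32.5 ± 2.15 CPM (0.36, SE 0.08, adjusted p = 0.000625). NDUFB1 rose from 19.7 ± 1.52 to 25.6 ± 2.64 (0.37, SE 0.12, adjusted p = 0.00891), a call that ended without DMSO B or combination A (adjusted p 0.0504 and 0.0606). NDUFV1 stood at 260 ± 11.5 and 259 ± 19.8 CPM (-0.00, adjusted p = 0.963). Among the assembly factors 5 of 8 fell and 1 rose, with a median of -0.40. NDUFAF8 fell to 17.1, 15.4 and 16.5 CPM from 25.3, 25.0 and 26.9 (-0.65, SE 0.08, adjusted p = 1e-07), and NDUFAF3, a factor that binds early core subunits, was the one that rose (0.31, SE 0.06, adjusted p = 5.4e-05).

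Complex III had 3 lower genes and 1 higher of 9. The structural core pair and the Rieske protein were the lower ones: UQCRC2 went from 101 ± 2.10 to 79.3 ± 1.99 CPM (-0.34, SE 0.05, adjusted p = 1.35e-06), UQCRC1 from 323 ± 3.84 to 263 ± 13.8 (-0.30, SE 0.05, adjusted p = 3.36e-05) and UQCRFS1 from 246 ± 5.91 to 200 ± 10.1 (-0.30, SE 0.05, adjusted p = 2.83e-05). UQCRB had 57.2, 51.9 and 57.0 CPM in DMSO and 87.1, 74.6 and 77.1 in the combination, without overlap (0.52, SE 0.08, adjusted p = 2.31e-06). UQCRH, the hinge protein, did not pass (-0.06, adjusted p = 0.488).

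The 8 genes of complex IV that rose were COX4I1, COX5B, COX6A1, COX6B1, COX6C, COX7A2, COX7B2 and COX7C. COX7C had 179, 160 and 182 CPM in DMSO and 270, 237 and 226 in the combination (0.49, SE 0.08, adjusted p = 1.79e-05). COX7B2, a relative of COX7B, rose from 13.7 ± 0.332 to 20.3 ± 0.862 CPM (0.56, SE 0.08, adjusted p = 1.55e-06), while COX7B stood at 95.1 ± 3.88 and 94.0 ± 5.06 (-0.02, adjusted p = 0.876). COX4I1 rose from 414 ± 8.23 to 473 ± 27.7 CPM (0.19, SE 0.06, adjusted p = 0.0101) and COX7A2 from 109 ± 2.97 to 127 ± 14.2 (0.22, SE 0.08, adjusted p = 0.0162).

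In complex V, 3 of 19 genes rose and 7 fell. The catalytic pair fell: ATP5F1B had 871, 887 and 853 CPM in DMSO and 612, 565 and 560 in the combination (-0.59, SE 0.05, adjusted p = 5.33e-10), and ATP5F1A went from 495 ± 3.99 to 359 ± 30.1 (-0.46, SE 0.06, adjusted p = 1.72e-07). Of the 3 genes for the c-ring subunit, which encode the same mature protein, 2 fell and 1 rose. ATP5MC1 had 60.6, 56.7 and 63.0 CPM in DMSO and 47.5, 40.5 and 42.8 in the combination (-0.46, SE 0.07, adjusted p = 3.77e-06). ATP5MC2 had 99.7, 94.7 and 93.3 CPM in DMSO and 148, 132 and 131 in the combination (0.51, SE 0.07, adjusted p = 1.41e-06). ATP5MC3, the most abundant of them in DMSO, had 190, 186 and 182 CPM there and 148, 135 and 142 in the combination (-0.39, SE 0.06, adjusted p = 7.29e-06). Every treated library was below the controls for ATP5MC1 and ATP5MC3 and above them for ATP5MC2. ATP5PO was higher (0.27, SE 0.10, adjusted p = 0.0223), a call that ended without DMSO A, DMSO C or combination A (adjusted p 0.0793, 0.0748 and 0.13). ATP5IF1 stood at 62.9 ± 4.24 and 63.3 ± 3.85 CPM (0.01, adjusted p = 0.931).

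Set directly against 24 h of docetaxel, the combination had lower levels of most members. Of 91, 4 were higher and 61 lower, where 32.1% of all tested genes were higher and 31.7% lower, and the median was -0.29 against 0.00 for all genes. Plates differ between these groups together with the drugs, and the 5 days before dosing and the 2% FBS are given for the combination alone. None of these conditions can be told apart from the drugs. All 5 genes of F1 and 10 of 12 of Fo and the stalk were lower, as were 7 of 8 assembly factors (median -0.61). NDUFAF8 (-0.93, SE 0.07, adjusted p = 2.46e-10), NDUFAB1 (-0.81, SE 0.07, adjusted p = 9.49e-10) and ATP5MC1 (-0.72, SE 0.07, adjusted p = 4.05e-09) were among them. Complex IV had the smallest shift, with 6 of 14 genes lower, 1 higher (COX7B2) and a median of -0.12. SDHB (-0.57, adjusted p = 1.21e-09) and SDHD (-0.61, adjusted p = 3.11e-09) were lower, whereas SDHA (-0.08, adjusted p = 0.107) and SDHC (0.02, adjusted p = 0.736) did not pass.

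Genes outside the set were followed through lists of the same pathway, whose shares stand beside those of all tested genes: 22.5% higher and 24.8% lower at 8 h, 20.2% higher and 22.7% lower at 24 h, and 31.4% in either direction for the combination. The 13 mRNAs of the mitochondrial genome, which encode the remaining subunits, were higher in all 3 treatments, 13 of 13 in each, with medians of 1.18 at 8 h, 0.61 at 24 h and 0.88 in the combination. MT-CO3, a core subunit of complex IV, had 3490 ± 53.1 CPM in DMSO, 8860 ± 769 at 8 h, 5693 ± 985 at 24 h and 6939 ± 737 in the combination (1.34, 0.71 and 0.99, each adjusted p at most 2.92e-06). The enzymes of the TCA cycle, which supply NADH and succinate, were mixed at 8 h, with 8 of 19 higher (42.1%) and 6 lower (31.6%). At 24 h 4 were higher (21.1%), a share near that of all genes, and 8 lower (42.1%). In the combination 18 of 19 were lower and none higher, with a median of -0.38. Citrate synthase (CS) went from 177 ± 1.62 to 113 ± 5.14 CPM (-0.65, SE 0.05, adjusted p = 4.04e-11) and IDH2 from 201 ± 1.67 to 126 ± 5.90 (-0.67, SE 0.05, adjusted p = 3.66e-11).

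Of 17 regulators of mitochondrial biogenesis, 5 were higher (29.4%) and 3 lower (17.6%) at 8 h, and 3 were higher (17.6%) and 2 lower (11.8%) at 24 h. Of these 4 shares only that of the higher genes at 8 h was above the share over all genes. In the combination 2 were higher (11.8%) and 13 lower (76.5%), with a median of -0.50. PPARGC1A, which encodes the coactivator PGC-1alpha, went from 0.454 ± 0.206 CPM in DMSO to 15.0 ± 1.36 in the combination (4.97, SE 0.20, adjusted p = 1.33e-15), with 0.463 ± 0.168 at 8 h and 0.566 ± 0.145 at 24 h. TFAM, the factor that packages and transcribes mitochondrial DNA, fell from 88.0 ± 1.87 to 49.6 ± 2.52 CPM (-0.82, SE 0.05, adjusted p = 6.43e-12), and PPRC1, a relative of PGC-1alpha, from 67.3 ± 3.92 to 41.8 ± 0.784 (-0.69, SE 0.06, adjusted p = 2.53e-10). NRIP1, a corepressor of oxidative genes, was lower in all 3 treatments (-1.18, -0.64 and -0.88).

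**Figure D4:**
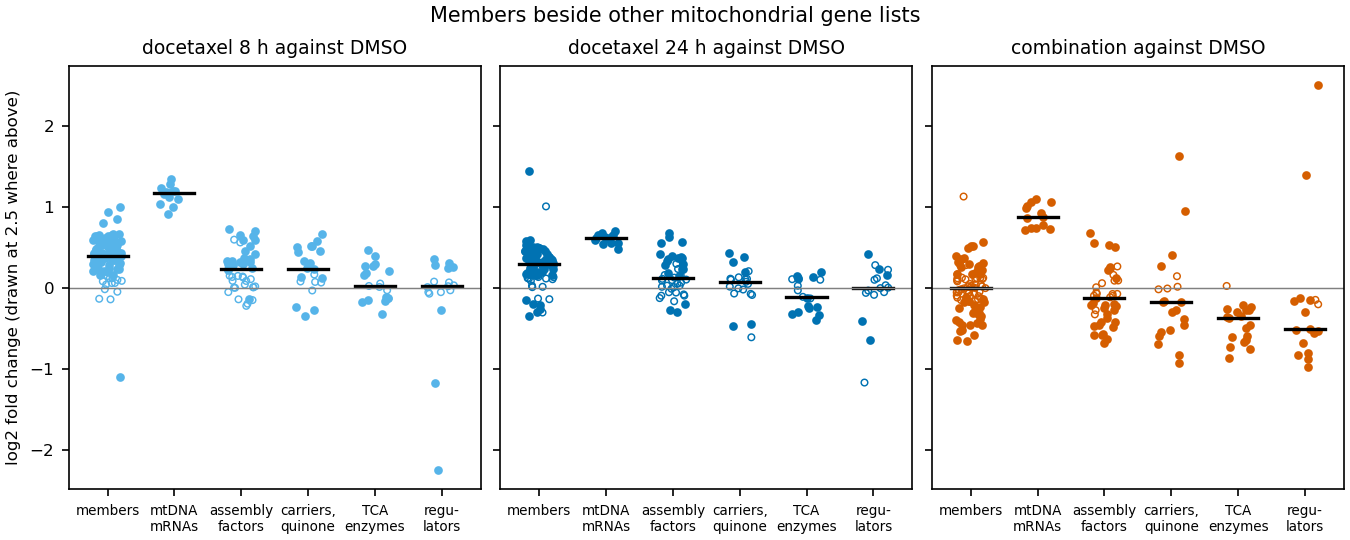
Log2 fold change against DMSO of the members and of 5 lists of related genes (points, filled where past the threshold, with medians as bars) in the 3 treatments. The mitochondrial mRNAs lie above 0 in each treatment, 18 of 19 TCA cycle enzymes lie below it in the combination, and PPARGC1A, at 4.97 in the combination, is drawn at the top of its panel.

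Transcript length moved with these results. The members' transcripts are short, 59 of the 91 being under 1000 bases by the median of their protein-coding transcripts in GENCODE 29, and in these libraries short genes were more often higher under docetaxel. Spearman's rho between length and log2 fold change was -0.39 at 8 h over the members and -0.39 over all 13881 protein-coding genes tested, given as a description since genes are not independent replicates. At 24 h it was -0.38 and -0.40, and in the combination -0.29 and -0.15. Inside the length classes the members and all protein-coding genes differed. Under 1000 bases rho was -0.06 for both at 8 h, and from 1000 bases on it was 0.33 for members and -0.35 for all. At 24 h the values were 0.02 and -0.14 in the short class, and 0.11 and -0.36 in the long class. In the combination they were 0.08 and -0.09, and -0.28 and -0.13. Within the short class, 93.2% of members were higher at 8 h against 54.1% of 1160 protein-coding genes, and in the class from 1000 bases on, 65.6% of 32 members against 22.7% of 12721. At 24 h the shares were 88.1% against 54.1% and 50% against 18.9%. In the combination, 30.5% of short members were higher against 43.0% of short genes, and 50% of long members were lower against 38.6% of long genes. The split at 1000 bases was chosen after the values were seen, and the part of length in the results was not tested further.

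For 61 of the 91 members, other genes cover less than 10% of the exons on the same strand and less than 10% on the opposite strand. Of these, 50 (82.0%) were higher at 8 h, beside 83.5% of all 91 members and 22.5% of all tested genes, and 1 was lower. At 24 h 46 (75.4%) were higher, beside 74.7% and 20.2%, and 5 (8.20%) lower, beside 6.59% and 22.7%. In the combination 15 (24.6%) were higher, beside 22.0% and 31.4%, and 22 (36.1%) lower, beside 28.6% and 31.4%. The medians were 0.38, 0.28 and -0.06, against 0.39, 0.30 and -0.01 over the 91 members.

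**Figure D5:**
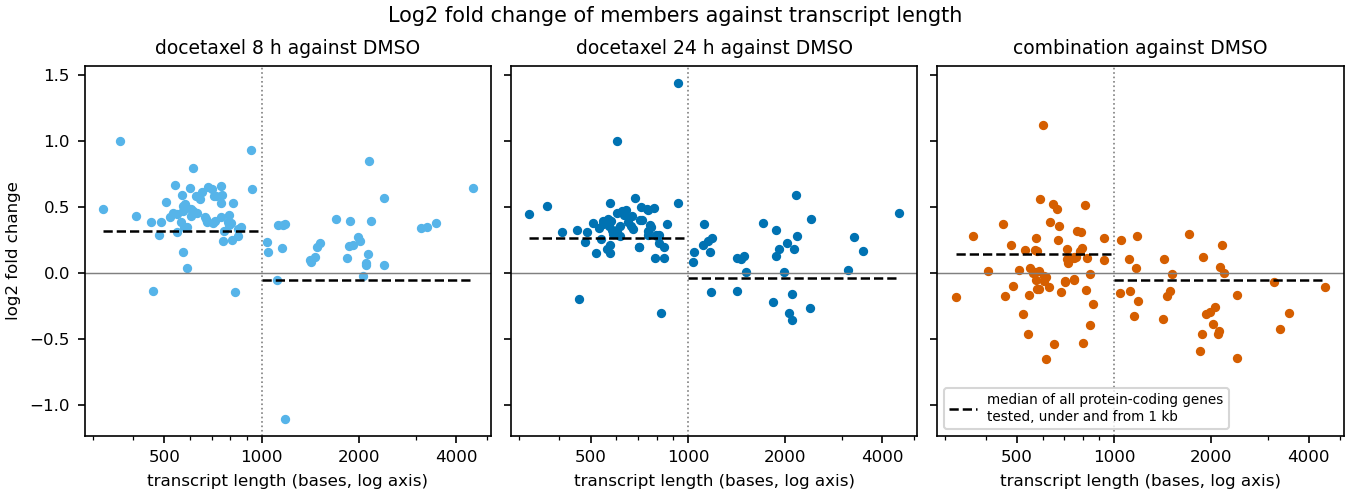
Log2 fold change of the tested members (points) against transcript length on a log axis in the 3 treatments; the dotted line marks 1000 bases and the dashed lines the median of all protein-coding genes tested on either side of it. At 8 h and 24 h of docetaxel most members lie above the dashed line on both sides, and in the combination the long members lie mostly below 0.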

How the data were processed

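The authors deposited a table of raw counts per gene symbol for each of the 12 libraries. Per the submitters' processing notes, the tools were fastp, HISAT2 2.0.5 and DESeq2 and the build was hg38. The counter, its annotation and its strand setting: not given in the sources used here. Per the labels' protocols the library could be directional or not. A further deposited table of scaled counts was not used.

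Members and lists were chosen with earlier results of these data known. Genes were kept by edgeR's filterByExpr (minimum count 10), and all 12 libraries entered a single model with a term for each group, scaled by TMM (0.917 to 1.05), which left 8 residual degrees of freedom (edgeR 4.0.16, R 4.3.3). The biological coefficient of variation was 5.59%. The quasi-likelihood test was two-sided, with Benjamini-Hochberg adjustment over 17780 genes for each of 5 comparisons and a threshold of 0.05. Standard errors are the fold change over the square root of F. The fit was tested on simulated data. Single genes are named as follows: for each complex and each treatment against DMSO, the 2 members that rose most and the 2 that fell most past the threshold, the 4 smallest adjusted p, genes fixed by name (among them the 4 SDH genes and the tissue forms of complex IV), and up to 4 genes of each of 5 lists. A gene that the rule names is not reported here. Other members named for a count were chosen after their values were seen. Coordinates, transcript lengths and overlaps came from GENCODE 29 (GRCh38). Duplicates of PCR stay in the counts. Alternatives were DESeq2 1.42.0 and its size factors, library totals with and without the mitochondrial genome, no low-count filter, a fit of the groups compared alone, a replicate block and leaving out each library.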

Additional observations from a re-analysis of the deposited data

Results flagged for a closer look

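Of the members reported by name, 19 differed between the docetaxel times in the direct test of 24 h against 8 h (edgeR, adjusted over all genes). Among all tested genes 16.6% were higher and 18.3% lower, and among the 91 members 5 and 25. Several of the 19 were named for a large change or a small adjusted p at 8 h. The direct test uses the same 8 h libraries, so a move back towards DMSO was favoured for them. The 19 members are listed with the difference on the log2 scale. The lower ones at 24 h in complex I were NDUFAF8 (-0.52), NDUFS1 (-0.32), NDUFV1 (-0.21) and NDUFB9 (-0.18). SDHA (-0.43) was the one of complex II. In complex III they were UQCR11 (-0.30), UQCRC1 (-0.27) and UQCRFS1 (-0.21), and in complex IV COX5B (-0.19), whose libraries overlapped. In complex V they were ATP5ME (-0.50), ATP5F1D (-0.44), ATP5MC1 (-0.41), ATP5F1B (-0.33) and ATP5F1A (-0.21). The higher ones were NDUFA4L2 (0.97), NDUFV2 (0.51), COX7A2L (0.26), COX7B2 (0.26) and ATP5IF1 (0.20).

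With library totals in place of TMM, ATP5F1A (-0.08, adjusted p = 0.191), NDUFV1 (-0.08, adjusted p = 0.2), UQCRFS1 (-0.08, adjusted p = 0.178), UQCR11 (-0.17, adjusted p = 0.0943), COX5B (-0.05, adjusted p = 0.53) and NDUFB9 (-0.05, adjusted p = 0.518) no longer passed. The other 13 kept their direction and their call with totals and with totals that leave out the mitochondrial genome.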

How the results depend on the processing

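Of 624 single-member values, 609 kept direction and side of the threshold and 15 lost the call without a change of direction. These values cover members named for a large change or a small adjusted p in that same comparison with DMSO, which favours keeping the call. Neither direct comparison is among them. Of all members called, library totals kept 59 of 77 at 8 h and 18 of 30 from 8 h to 24 h. At 24 h, 59 of 74 were kept without docetaxel 24 h C, and in the combination 36 of 46 without DMSO B. Of 325 complex medians (complex I with its assembly factors), 14 changed sign, 8 under library totals, with or without the mitochondrial genome, and 6 with a library left out. With library totals the median of complex II at 8 h went from 0.14 to -0.02, and from 8 h to 24 h those of complexes I, II, III, IV and V went from -0.11, -0.02, -0.11, -0.04 and -0.12 to 0.03, 0.11, 0.02, 0.09 and 0.02. The median of all tested genes went from -0.02 to -0.18 at 8 h, and from 0.01 to 0.14 between the docetaxel times. Complex II at 8 h thus stayed above all genes, and from 8 h to 24 h every complex stayed below them. Also 14 medians moved by more than the spread between libraries, all but 1 of them under library totals, with or without the mitochondrial genome. Members lower at 8 h numbered 1, against 4 with library totals, 3 with totals that leave out the mitochondrial genome, 2 with no low-count filter, 2 with the groups compared alone, 2 with the replicate block, and 1 to 2 with a library left out. Members higher in the combination numbered 20, against 12 to 20 with a library left out. From 8 h to 24 h of docetaxel, members higher numbered 5, against 15 with library totals, 10 with totals that leave out the mitochondrial genome and 1 to 7 with a library left out, and members lower numbered 25, against 13, 16, and 16 to 38. Over all tested genes 2947 were higher with TMM, 5387 with library totals and 4631 with totals that leave out the mitochondrial genome. The lower genes were 3261, 1659 and 1992 in the same order. Leaving out a library gives 2 in that group, and the spread is then estimated over 11 libraries. For these shifts the cause was not tested.

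Libraries of the same letter did not deviate together (correlations of deviations -0.20 to 0.07 in the 5 comparisons), so the letters were not taken as pairs. With the replicate block the members higher and lower were 76 and 2 at 8 h, 71 and 6 at 24 h, 23 and 27 in the combination, 5 and 26 from 8 h to 24 h, and 4 and 63 for the combination against 24 h. Depth limits the members near 1 CPM or less, such as NDUFA4L2, NDUFV2 and NDUFA7.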

Other observations

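Assembly factors outside the symbol rule were counted in a list of 43. At 8 h 21 were higher (48.8%, beside 22.5% of all tested genes) and 1 lower (2.33%, beside 24.8%), with a median of 0.23. At 24 h 17 were higher (39.5%, beside 20.2%) and 3 lower (6.98%, beside 22.7%), with a median of 0.13. In the combination 8 were higher (18.6%) and 20 lower (46.5%), each beside 31.4%, with a median of -0.13. COA4, a twin-cysteine protein of the intermembrane space, had 82.9 ± 0.887 CPM in DMSO, 135 ± 13.1 at 8 h, 104 ± 3.35 at 24 h and 72.8 ± 4.89 in the combination (SD, n = 3), with log2 fold changes of 0.70, 0.33 and -0.19, each past the threshold of edgeR's test. ATPAF1, a chaperone of the F1 beta subunit, was at 61.7 ± 1.6, 65.4 ± 0.548 and 65.7 ± 4.12 CPM in DMSO and the docetaxel groups and fell to 38.5 ± 3.09 in the combination (-0.68, SE 0.06, adjusted p = 1.04e-09). TTC19, a complex III factor, was lower in all 3 treatments (-0.14, -0.30 and -0.58).

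Of 21 electron carriers and other quinone-linked enzymes, 13 were higher (61.9%) and 3 lower (14.3%) at 8 h. At 24 h 4 were higher (19.0%), near the 20.2% of all tested genes, and 2 lower (9.52%). The combination had 4 higher (19.0%) and 13 lower (61.9%). PDSS1, which starts the ubiquinone side chain, rose from 11.0 ± 0.199 to 17.4 ± 0.240 CPM at 8 h (0.66, adjusted p = 2.33e-07) and fell to 5.75 ± 0.418 in the combination (-0.93, adjusted p = 1.97e-09). ETFB, of the flavoprotein that carries electrons from fatty acid oxidation, went from 23.5 ± 0.187 to 45.5 ± 5.27 CPM in the combination (0.95, adjusted p = 9.46e-10). AIFM1 (-0.69) and the glycerol phosphate dehydrogenase GPD2 (-0.83) fell there.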
